A study of Mus musculus with 6 samples.

Results

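Trp53, the gene for the transcription factor p53, and 9 genes known as its direct targets or partners were followed in early LPre-B (large pre-B) cells with and without deletion of Upf1. The 10 genes (Trp53, Mdm2, Cdkn1a, Ccng1, Bbc3, Phlda3, Zmat3, Trp53inp1, Sesn1 and Ephx1) were picked by name and matched by Entrez ID, and all 10 were among the 13426 genes of the count-derived expression table. RNA sequencing was done on 3 control (Ctrl) and 3 Upf1-cKO libraries from sorted mouse bone marrow cells. Ctrl mice were Upf1 Flox/Flox and Mb1 +/+, and Upf1-cKO mice were Upf1 Flox/Flox and Mb1 Cre/+, on a C57BL/6 background with adult males and females of matched age. Both groups therefore carried floxed Upf1, while Cre and the loss of 1 intact Cd79a (Mb1) allele were present only in Upf1-cKO, so that their effects and that of losing Upf1 cannot be told apart. Cre from the Cd79a locus acts in B lineage cells from the earliest committed stages. The flow cytometry gate included lineage-negative, B220+, surface IgM-, CD43+, large and CD2- cells.

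p53 is a tetrameric transcription factor that is held at a low protein level by the ubiquitin ligase MDM2 and is stabilised, mostly after translation, by DNA damage and other stresses. It then activates genes that halt the cell cycle, promote apoptosis, repair DNA or adjust metabolism, and several of them act back on p53 itself. In developing B cells the pathway is known as a checkpoint on DNA breaks made during immunoglobulin gene recombination. UPF1 is an RNA helicase at the core of nonsense-mediated mRNA decay (NMD), which degrades transcripts whose stop codon is followed by a downstream exon junction or a long trailing sequence.

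The promoters of 2 targets that rose in Upf1-cKO held the closest matches to the p53 response element, a pair of 10-base elements with 0 to 13 bases between them whose letters read alike on both strands. RefSeq windows of 300 bases (250 before and 50 after an annotated start, GRCm38.p6) were present for 8 of the 10 genes. Among all 32851 windows, 0.0731% held the element with no mismatch and 0.627% with at most 1. The 250 bases before the start are printed 5′ to 3′ with the matching elements in capitals, to show where the matching letters lie in each promoter.
Cdkn1a, chr17:29090729-29090978, plus strand, 0 mismatches: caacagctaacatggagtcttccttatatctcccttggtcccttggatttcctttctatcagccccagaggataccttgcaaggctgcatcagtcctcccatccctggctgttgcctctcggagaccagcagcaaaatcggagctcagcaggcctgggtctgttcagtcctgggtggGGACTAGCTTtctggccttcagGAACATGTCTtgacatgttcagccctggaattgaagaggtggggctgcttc
Ccng1, chr11:40755287-40755536, minus strand, 1 mismatch: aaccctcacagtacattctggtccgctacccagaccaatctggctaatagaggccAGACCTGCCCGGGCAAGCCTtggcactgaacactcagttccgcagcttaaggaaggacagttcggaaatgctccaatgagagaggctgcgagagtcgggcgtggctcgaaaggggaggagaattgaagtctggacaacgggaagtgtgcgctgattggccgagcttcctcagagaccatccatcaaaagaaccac

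The Cdkn1a match at chr17:29090906-29090937 had a spacer of 12 bases and ended 41 bases before the upstream of its annotated starts. The search kept the fewest mismatches whatever the spacer. The second element, GAACATGTCT, is directly followed by tgacatgttc, which departs from the element only in its first letter. A pair without a spacer therefore lies there as well, left partly in small letters above. In Ccng1 the match at chr11:40755462-40755481 had no spacer and ended 175 bases before the start. Both lie upstream of the annotated gene. At the other annotated start of Cdkn1a the best match had 5 mismatches, a closeness that 68.7% of all windows reach. Weaker matches, with 2 and 3 mismatches, lay before internal starts of Sesn1 and Bbc3, within the annotated gene but outside its annotated exons. Of all windows, 4.09% and 15.6% held a match at least as close. Bbc3 had another match with 3 mismatches, at chr7:16310156-16310177, which is not printed. The Sesn1 match and 1 Bbc3 match are shown to let the elements be compared by eye with those above.
Sesn1, chr10:41887253-41887275, plus strand, 2 mismatches: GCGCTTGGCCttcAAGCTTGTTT
Bbc3, chr7:16309486-16309505, plus strand, 3 mismatches: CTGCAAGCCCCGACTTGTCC

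A 3-mismatch match was also the best for Trp53, and Mdm2 and Ephx1 reached 4 mismatches and Phlda3 reached 5, closeness that 15.6%, 40.4% and 68.7% of all windows equalled or exceeded. The known p53 elements of Mdm2 lie within an intron, outside such windows. Zmat3 and Trp53inp1 were not searched. A match in these letters is a description of the sequence and says nothing about binding of p53 in these cells.

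**Figure D1:**
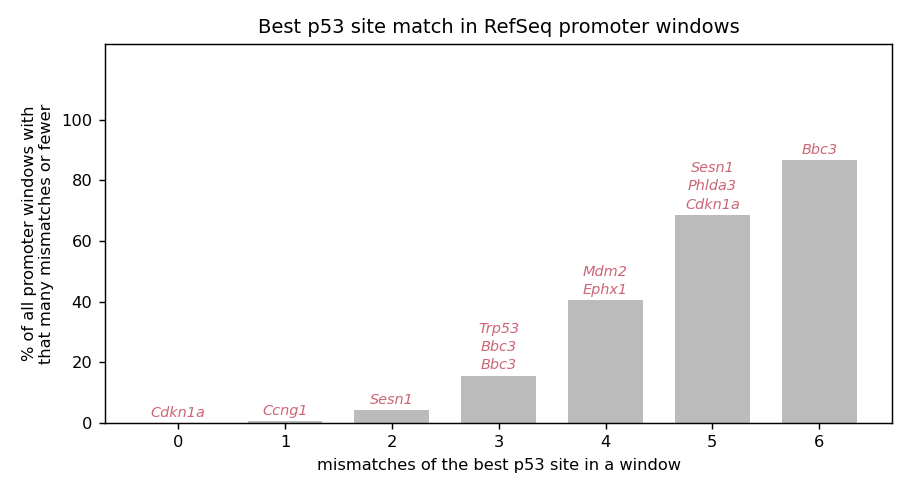
Best match to the p53 response element in RefSeq promoter windows. The x axis gives the number of mismatches of the best match, grey bars give the percentage of all 32851 windows with that many mismatches or fewer, and the names mark the 12 windows of 8 genes (Cdkn1a and Sesn1 have 2 windows and Bbc3 has 3). The first Cdkn1a window stands at 0 mismatches and Ccng1 at 1, where the bars are at 0.0731% and 0.627%.

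Each library gave between 9732498 and 11006834 reads assigned to genes. Values are called normalised reads, meaning reads with 0.5 added, per 1000000 reads of the effective library size. Means are given ± SD over n = 3 libraries per group, and fold changes are Upf1-cKO minus Ctrl of log2(value + 1), a scale on which changes of weakly expressed genes come out too small. Each carries its standard error (SE) and an adjusted p from limma with Benjamini-Hochberg adjustment over all 13426 genes. The gene count of Upf1 was 260, 203 and 259 normalised reads in Ctrl and 308, 283 and 300 in Upf1-cKO, but it also covers exons outside the deleted part and so does not check the deletion. Its difference of 0.31 on the log2 scale (SE 0.09, adjusted p = 0.00696) lost the threshold with libraries centred on their medians and with eBayes without trend and robust estimation. Cd79a, whose locus carries Cre, was at 234, 215 and 213 in Ctrl and at 71.6, 75.2 and 73.0 in Upf1-cKO, so the 3 Cre-carrying libraries stood apart from the controls as labelled. The B lineage markers reported here summed to 1880 to 2080 normalised reads in Ctrl and 1820 to 1890 in Upf1-cKO, with all 8 detected in every library. Within this sum 2 were called higher, Rag1 (71.4 against 208 on average) and Vpreb1 (171 against 226). The 2 called lower were Cd79a and Ptprc (277 against 154). In bulk RNA, fewer cells of a type and less RNA per cell cannot be told apart.

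Of the 10 genes, 6 were higher in Upf1-cKO (Cdkn1a, Ccng1, Bbc3, Phlda3, Zmat3 and Sesn1), 3 were lower (Mdm2, Trp53inp1 and Ephx1) and Trp53 itself was not called. Calls were frequent in the whole table, where 27.7% of genes were called higher and 25.0% lower, 52.7% in all. The share of higher genes among these calls was 52.6%, and it became 40.7% with libraries centred on their medians and 72.8% with scaling to total reads. The median log2 fold change was 0.65 over the 10 genes and 0.01 over all genes. The 10 genes were chosen with earlier results of these data known, so their contrasts with all genes are not independent of these data. The values of the 2 groups did not overlap for the same 9 called genes, 6 with Upf1-cKO above and 3 with Upf1-cKO below, against 30.9% and 28.0% of all genes, 58.8% in all. Scaling to total reads left 1 of the 10 genes called lower, Ephx1, and 7 called higher, Trp53 being added.

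**Figure D2:**
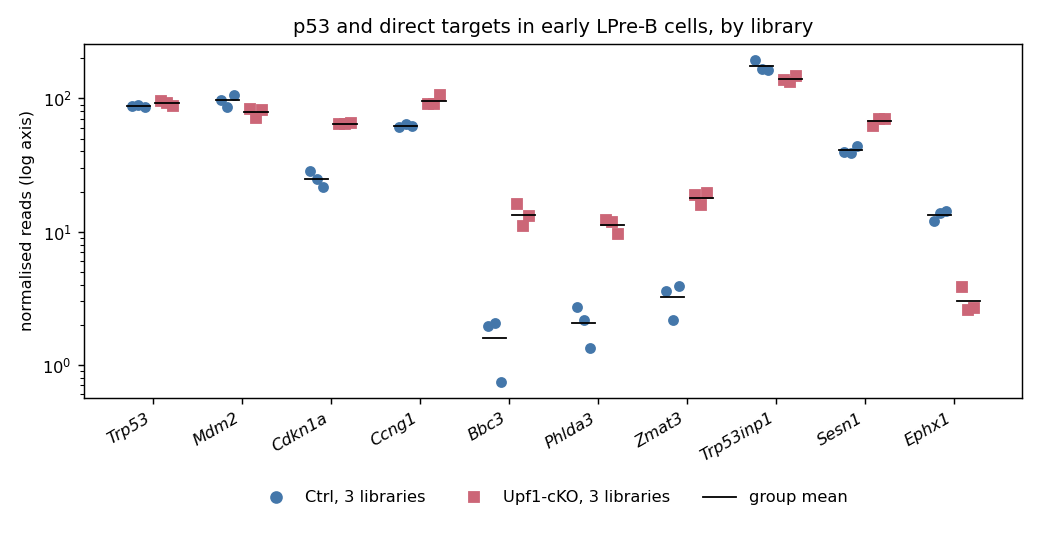
Normalised reads (log axis) of Trp53 and 9 direct targets in each of 3 Ctrl (circles) and 3 Upf1-cKO (squares) libraries, with group means as lines. The groups overlap for Trp53, where all 6 libraries lie between 86.3 and 95.4, and are farthest apart on this axis for Bbc3, with means of 1.59 and 13.4.

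Per kilobase of annotated exon, the control levels ranged from 0.281 to 26.9. Trp53inp1 was the highest at 26.9 normalised reads per kilobase, followed by Trp53 at 21.7, Mdm2 at 19.0 and Ccng1 at 17.8. Sesn1 stood at 10.3, Cdkn1a at 7.05 and Ephx1 at 6.87. Phlda3 at 1.33, Bbc3 at 0.75 and Zmat3 at 0.281 were the lowest, so the 3 genes with the highest fold changes were those least expressed in Ctrl. Among neighbours in this order, Mdm2 and Ccng1, Cdkn1a and Ephx1, and Phlda3 and Bbc3 overlapped between control libraries and do not differ beyond their spread. In Upf1-cKO the levels per kilobase were 27.3 for Ccng1, 22.7 for Trp53, 21.5 for Trp53inp1, 18.1 for Cdkn1a, 16.9 for Sesn1, 15.5 for Mdm2, 7.24 for Phlda3, 6.31 for Bbc3, 1.57 for Zmat3 and 1.55 for Ephx1. In that order Trp53 and Trp53inp1, Sesn1 and Mdm2, Phlda3 and Bbc3, and Zmat3 and Ephx1 overlapped between Upf1-cKO libraries and cannot be ranked.

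Trp53 (Entrez 22059, chr11:69580348-69591873) was measured at 88.4, 88.7 and 86.3 normalised reads in Ctrl and at 95.4, 92.9 and 87.5 in Upf1-cKO. The lowest Upf1-cKO library lay within the control range. The means were 87.8 ± 1.28 and 91.9 ± 4.05, and the log2 fold change was 0.06 (SE 0.08, adjusted p = 0.522) with a 95% confidence interval from -0.10 to 0.23. These values rested on 832 to 877 reads per control library and 977 to 1037 per Upf1-cKO library. The sign turned with libraries centred on their medians (-0.04), and with scaling to total reads the difference was 0.27 and was called (adjusted p = 0.0125), beside a median over all genes of 0.19 under the same scaling.

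Mdm2 (Entrez 17246, chr10:117688875-117710758) encodes the ubiquitin ligase that marks p53 for degradation and is itself switched on by p53. It had 96.7, 86.9 and 106 normalised reads in Ctrl against 83.5, 71.0 and 81.4 in Upf1-cKO. All 3 Upf1-cKO libraries lay below all 3 controls, though by a narrow gap. The log2 fold change was -0.29 (SE 0.09, adjusted p = 0.0134), from 96.6 ± 9.58 to 78.6 ± 6.68. This call was lost without Ctrl replicate 3 (-0.22, adjusted p = 0.0601), without Upf1-cKO replicate 2 (-0.22, adjusted p = 0.0968), with scaling to total reads (-0.09) and with eBayes without trend and robust estimation (adjusted p = 0.0684).

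Cdkn1a (Entrez 12575, chr17:29090979-29100722) encodes p21, an inhibitor of cyclin-dependent kinases and the best known mediator of p53-dependent cell cycle arrest. Its levels were 28.7, 24.9 and 21.5 normalised reads in Ctrl and 64.1, 64.2 and 65.1 in Upf1-cKO. The 3 Upf1-cKO libraries were nearly equal and each lay far above the highest control. Cdkn1a rose from 25.0 ± 3.62 to 64.4 ± 0.589, a ratio of 2.57 between means, and by 1.34 on the log2(value + 1) scale (SE 0.11, adjusted p = 8.86e-09). The change exceeded that of 96.2% of all genes. An unclassified transcript on the opposite strand shares 273 bases, 7.68% of the Cdkn1a exon sequence, and its reads cannot be told apart because counting ignored strand.

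Ccng1 (Entrez 12450, chr11:40748552-40755309) encodes cyclin G1, a p53-induced partner of protein phosphatase 2A that takes part in the MDM2 feedback. In Ctrl it stood at 60.7, 64.7 and 62.2 normalised reads and in Upf1-cKO at 90.8, 90.8 and 106. The groups did not overlap, and the spread was wider in Upf1-cKO. Ccng1 rose from 62.5 ± 2.02 to 95.9 ± 8.87, by 0.61 on the log2 scale (SE 0.09, adjusted p = 1.37e-05), which is 1.53 times the control mean.

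Bbc3 (Entrez 170770, chr7:16308398-16318334) encodes PUMA, a BH3-only protein that triggers mitochondrial apoptosis. It was scarce in controls, at 1.97, 2.07 and 0.745 normalised reads, and reached 16.1, 11.0 and 13.2 in Upf1-cKO. Every Upf1-cKO library exceeded the highest control several times over. Only 7 to 20 reads per library lay behind the control values, against 121 to 164 in Upf1-cKO. The means were 1.59 ± 0.737 and 13.4 ± 2.55, a ratio of 8.41, with adjusted p = 4.16e-08, and the log2 fold change exceeded that of 99.5% of all genes.

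Phlda3 (Entrez 27280, chr1:135766085-135769134) encodes a small pleckstrin homology domain protein that restrains the survival kinase AKT. Its 3 controls were at 2.71, 2.17 and 1.34 normalised reads and its Upf1-cKO libraries at 12.3, 11.9 and 9.65. All Upf1-cKO values were again clearly above the control range. The mean increased 5.44 times, from 2.07 ± 0.689 to 11.3 ± 1.43 (adjusted p = 1.78e-07), on 13 to 25 reads per control library and 114 to 131 per Upf1-cKO library.

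Zmat3 (Entrez 22401, chr3:32334792-32365665) encodes a zinc finger protein that binds RNA and acts on splicing and mRNA stability downstream of p53. It had 3.56, 2.17 and 3.92 normalised reads in Ctrl and 18.7, 15.8 and 19.4 in Upf1-cKO. The lowest value of each group came from its second library, and the groups were far apart. The mean rose 5.59 times, from 3.22 ± 0.924 to 18.0 ± 1.9 (adjusted p = 1.92e-08). The fold changes of Phlda3 and Zmat3 exceeded those of 98.9% and 99.1% of all genes.

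Sesn1 (Entrez 140742, chr10:41810574-41908436) encodes sestrin 1, a stress protein that restrains the growth regulator mTORC1. The controls stood at 39.8, 39.0 and 43.8 normalised reads and the Upf1-cKO libraries at 61.8, 70.1 and 69.7. No Upf1-cKO value reached down to the controls. Sesn1 rose from 40.9 ± 2.58 to 67.2 ± 4.67, by 0.70 on the log2 scale (SE 0.09, adjusted p = 5.35e-06).

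Trp53inp1 (Entrez 60599, chr4:11156441-11174379), which encodes a p53-induced nuclear protein linked to p53 phosphorylation and autophagy, moved the other way. It had 194, 167 and 162 normalised reads in Ctrl and 137, 132 and 148 in Upf1-cKO, with all Upf1-cKO libraries below the controls. The mean went from 174 ± 17.0 to 139 ± 8.17 and the log2 fold change was -0.32 (SE 0.08, adjusted p = 0.00346). The call was lost with scaling to total reads, where the fold change was -0.12 (adjusted p = 0.277).

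Ephx1 (Entrez 13849, chr1:180989556-181017569) encodes microsomal epoxide hydrolase, an enzyme that detoxifies reactive epoxides. It fell from 12.1, 13.9 and 14.2 normalised reads in Ctrl to 3.85, 2.57 and 2.66 in Upf1-cKO, and the highest Upf1-cKO library stayed far under the lowest control. The control mean of 13.4 ± 1.18 was 4.43 times the Upf1-cKO mean of 3.03 ± 0.718 (adjusted p = 1.22e-07), on 113 to 143 reads per control library and 28 to 39 per Upf1-cKO library. A decrease as deep was rare, since 0.7% of all genes had a lower log2 fold change. A pseudogene shares 72 bases, 3.69% of the Ephx1 exon sequence.

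**Figure D3:**
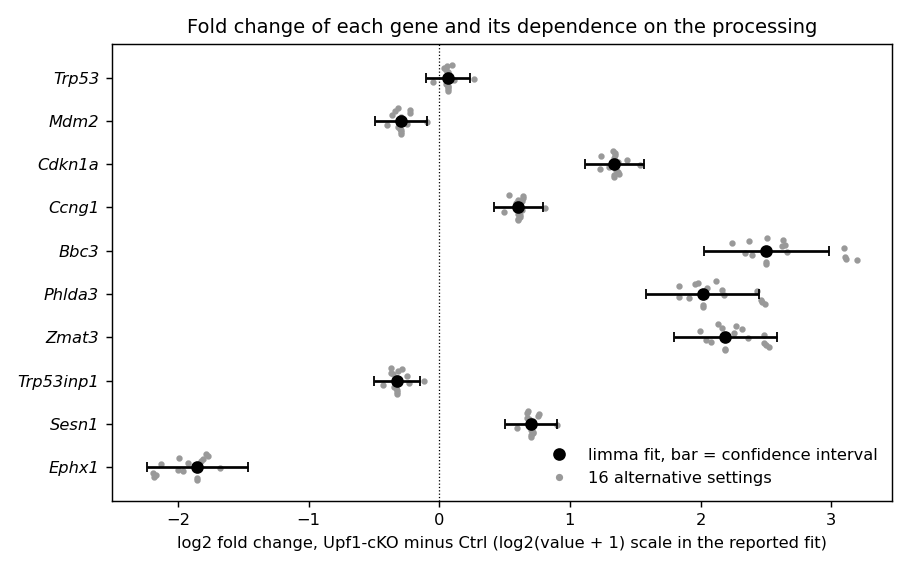
Log2 fold change (x axis, Upf1-cKO minus Ctrl) of each of the 10 genes. Black points are the reported limma estimates with bars for 95% confidence intervals, and grey points are 16 alternative settings, which include leaving out each library. Estimates for Bbc3 run from 2.24 to 3.20 and for Ephx1 from -2.19 to -1.68, while those for Trp53 run from -0.04 to 0.27.

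Gene model features on which NMD is known to act were read for each transcript set. Among the 10 genes, Mdm2 alone has an annotated NMD-type transcript, 1 of its 9, while 29.4% of the 11957 genes with a coding model have at least 1. Phlda3 alone has an exon junction more than 50 bases after its stop codon, at 68 bases, a feature of 0.34% of the coding models. Each coding model is 1 transcript annotated as protein-coding, and NMD-type transcripts are set apart. The 0.34% is therefore not a rate over all transcripts. Of the 41 genes of the table with such a junction, 20 were called higher (48.8%) and 5 lower (12.2%), and of the 3511 genes with an NMD-type transcript 37.2% were higher and 19.5% lower, against 29.3% and 25.8% of all coding models. The sequence after the stop codon was 6692 bases in Zmat3 and 4420 in Trp53inp1, longer than in 98.7% and 95.3% of genes, and these 2 genes went in opposite directions. The median length after the stop was 1200 bases for the 10 genes and 927 for all coding models.

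Beyond these 10 genes, 99 of 109 other listed p53 pathway genes were in the table, of which 38 (38.4%) were higher and 23 (23.2%) lower, with a median log2 fold change of 0.16. The lists were compiled by hand from textbook knowledge of the pathway, with earlier results of these data known. Their shares are therefore not independent of these data. Their higher share stands beside 27.7% and their lower share beside 25.0% of all genes. With median centring 28 of the 99 genes were higher and 28 lower, beside 2992 and 4355 of all 13426 genes. With scaling to total reads 44 of the 99 were higher and 14 lower, beside 5172 and 1936 of all genes.

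**Figure D4:**
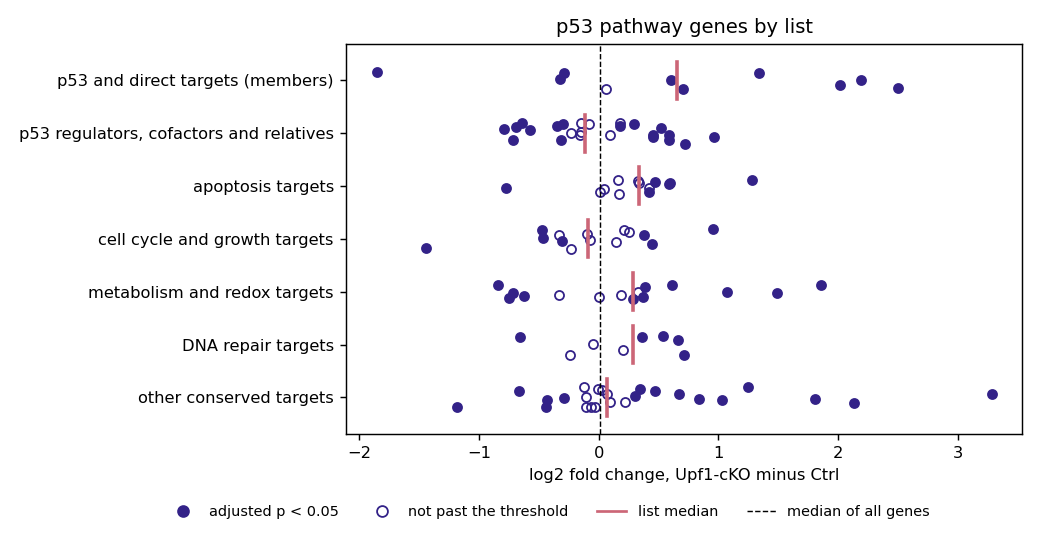
Log2 fold changes (x axis, Upf1-cKO minus Ctrl) of p53 pathway genes, grouped by list. Filled points passed adjusted p of 0.05, red bars are list medians (0.65 for the 10 genes, 0.34 for apoptosis targets, -0.11 for regulators) and the dashed line is the median of all genes at 0.01.

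Of the regulators and cofactors of p53, 9 of 24 (37.5%) were higher and 8 (33.3%) lower, with a median of -0.11. The shares of this and the following lists stand beside 27.7% higher and 25.0% lower among all genes. Mdm4, the relative of Mdm2 that masks the activation domain of p53, had a mean of 163 ± 18.0 in Ctrl and 199 ± 1.28 in Upf1-cKO (adjusted p = 0.00674), a call lost with median centring and with eBayes without trend and robust estimation. Trp53bp1, which encodes the DNA break response protein 53BP1, rose from 98.7 ± 2.38 to 194 ± 5.81 (log2 fold change 0.97, adjusted p = 5.16e-09), and Ppp1r13b, a p53 cofactor that favours apoptotic targets, rose from 11.0 ± 1.72 to 18.7 ± 1.67. Ppm1d, the phosphatase that switches off p53 signalling, fell from 62.6, 57.8 and 55.9 in Ctrl to 35.3, 27.8 and 38.6 in Upf1-cKO (adjusted p = 1.18e-05). Wrap53, which encodes a telomerase and Cajal body protein and starts 98 bases from Trp53 on the other strand, rose from 22.4 ± 1.79 to 34.3 ± 3.72 (adjusted p = 0.000322). Cdkn2a, source of the MDM2 inhibitor ARF, stood at 1.39 ± 0.469 and 0.545 ± 0.415 (adjusted p = 0.034), and Npm1, the nucleolar protein that holds ARF, at 843 ± 211 and 503 ± 61.2 (adjusted p = 0.0399). Neither call held in full, since that of Cdkn2a was lost without Ctrl replicate 1 or 2 or Upf1-cKO replicate 2 or 3, with edgeR, with DESeq2 and with scaling to total reads. That of Npm1 was lost without Ctrl replicate 2 or 3 or Upf1-cKO replicate 1 or 3, with quantile normalization and with scaling to total reads.

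Among apoptosis targets, 5 of 13 (38.5%) were higher, 1 (7.69%) was lower and the median was 0.34. Eda2r, a death receptor of the tumour necrosis factor family, had 0 reads in all 3 controls and 12 to 23 reads in each Upf1-cKO library, which is at least 4.98-fold higher when each control is set to the floor of 3 reads. Bax, the pore-forming effector downstream of PUMA, rose from 33.8 ± 2.13 to 45.5 ± 2.98 (log2 fold change 0.42, adjusted p = 0.00177) and the lysosomal protease gene Ctsd from 41.7 ± 2.08 to 63.2 ± 4.71. Pmaip1, which encodes the BH3-only protein NOXA, had 2.56 ± 0.716 and 4.32 ± 0.365 (adjusted p = 0.0227), a call lost without Ctrl replicate 1 or 3 or Upf1-cKO replicate 2 or 3, with DESeq2, with median centring and with quantile normalization. Siva1, a proapoptotic gene, was the member of the list that fell, from 35.3 ± 1.92 to 20.3 ± 0.751. The death receptor gene Fas was not called, at 0.736 ± 0.252 and 0.956 ± 0.338 (adjusted p = 0.555), and Perp was not analysed here.

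Of the cell cycle and growth targets, 3 of 14 (21.4%) were higher and 4 (28.6%) lower, with a median of -0.09. These shares lie near the 27.7% and 25.0% of all genes. Plk2, a kinase of centriole duplication, fell from 9.86 ± 0.268 to 3.09 ± 1.08 (log2 fold change -1.45, adjusted p = 1.14e-05). E2f7, a repressor of E2F target genes, fell from 111 ± 5.23 to 79.9 ± 3.29, and Ckap2, a spindle protein gene, from 76.2 ± 5.65 to 55.2 ± 6.01. Ptprv, a phosphatase gene of the p53 arrest response in the mouse, rose from 4.96 ± 0.479 to 10.6 ± 1.09 (adjusted p = 0.000118).

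Of the metabolism and redox targets, 7 of 15 (46.7%) were higher and 4 (26.7%) lower, with a median of 0.29. Sesn2, a relative of Sesn1, was at 3.03, 3.28 and 2.63 normalised reads in Ctrl and at 8.05, 12.0 and 10.8 in Upf1-cKO, with no overlap and a difference of 1.49 on the log2 scale (SE 0.19, adjusted p = 3.12e-06). Nadsyn1, an enzyme gene of NAD synthesis, rose from 14.9 ± 0.723 to 32.7 ± 4.59 (adjusted p = 1.15e-06), and Pank1, which starts coenzyme A synthesis, fell from 25.1 ± 2.14 to 13.6 ± 1.95 (adjusted p = 3.65e-05). Ddit4, an mTORC1 inhibitor gene, had a large but uneven difference, from 10.3, 7.02 and 25.6 in Ctrl to 64.0, 41.8 and 40.3 in Upf1-cKO. The difference of 1.86 on the log2 scale (SE 0.54, adjusted p = 0.0443) lost the threshold without any 1 of Ctrl replicates 1 and 2 and the 3 Upf1-cKO replicates, with median centring, and with the replicate number as a block (adjusted p = 0.0835).

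DNA repair targets were higher in 4 of 8 and lower in 1, with a median of 0.29. Ercc5, an endonuclease gene of nucleotide excision repair, rose from 13.4 ± 1.85 to 22.5 ± 1.77 (adjusted p = 0.000232). The translesion polymerase genes parted, Polk rising from 20.1 ± 1.96 to 29.7 ± 0.766 and Polh falling from 142 ± 15.5 to 89.5 ± 3.85 (adjusted p = 0.000654 and 5.05e-06). Mgmt, which repairs alkylated guanine, stood at 1.52 ± 0.211 and 3.03 ± 0.804 (adjusted p = 0.0146), a call lost without Upf1-cKO replicate 1 and with quantile normalization.

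Among 25 other conserved targets, 10 were higher and 5 lower, and the median was 0.07. Leaving aside Eda2r with its 0 reads in Ctrl, the largest rise of a listed pathway gene was that of Pvt1, a long noncoding RNA gene next to Myc, with 4.2, 6.52 and 6.21 normalised reads in Ctrl and 67.6, 57.3 and 64.1 in Upf1-cKO (log2 fold change 3.28, SE 0.15, adjusted p = 3.02e-12). Lif, a cytokine gene, rose from 0.865 ± 0.186 to 7.18 ± 0.903 (adjusted p = 7.68e-08) and Zfp385a, which encodes a p53-binding zinc finger protein, from 3.03 ± 0.829 to 12.9 ± 1.52 (adjusted p = 3.26e-07). Trp53cor1, the long noncoding RNA lincRNA-p21 that lies 11853 bases from Cdkn1a, rose from 0.776 ± 0.5 to 3.12 ± 0.113 (log2 fold change 1.25, adjusted p = 0.000152).

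Markers of other cells were read beside these results. Neutrophil markers moved with the genotype, 5 of 10 being higher and 0 lower, and they summed to 124, 19.7 and 14.8 normalised reads in Ctrl and to 466, 357 and 333 in Upf1-cKO, so Ctrl replicate 1 stood apart from the other controls. Ngp, Ltf and S100a9 made up most of the neutrophil sum, at 124 ± 26.4, 95.0 ± 18.4 and 93.8 ± 15.9 in Upf1-cKO. The early markers Elane and Prtn3 were at 0.521 ± 0.35 and 0.901 ± 0.227 in Ctrl. In Upf1-cKO they were at 1.87 ± 0.374 and 0.915 ± 0.681, Elane being called higher. Fcnb had 0 reads in Ctrl replicate 3. Without Ctrl replicate 1, the control with the highest neutrophil sum, the 10 genes had 6 calls higher and 3 lower. Of all 13426 genes, 3643 were then higher and 3350 lower. The groups then differed more in these markers. Monocyte and macrophage markers summed to 36.9 to 65.9 in Ctrl and 61.7 to 83.7 in Upf1-cKO, with 1 of 6 higher. Erythroid markers summed to 3.19 to 4.45 and 2.61 to 3.43, T and NK markers (2 of 7 in the table) to 1.17 to 1.59 and 3.79 to 5.27, and plasmacytoid dendritic markers to 1.09 to 2.87 and 3.61 to 4.59. The single stromal gene in the table, Col1a1, was at 0.0497 to 0.266 and 0.732 to 1.39, with 0 reads in Ctrl replicates 2 and 3. Later B cell markers summed to 23.0 to 28.5 in Ctrl and 16.9 to 18.3 in Upf1-cKO, with 1 of 5 called higher (Cr2, 5.39 against 10.1 on average) and 2 lower (Il2ra, 13.3 against 1.67, and Cd2, 2.9 against 0.653). Plasma cell markers summed to 28.4 to 40.3 and 14.0 to 18.2, with 0 reads of Jchain in Upf1-cKO replicate 2. Their part in the differences of the p53 genes was not tested.

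**Figure D5:**
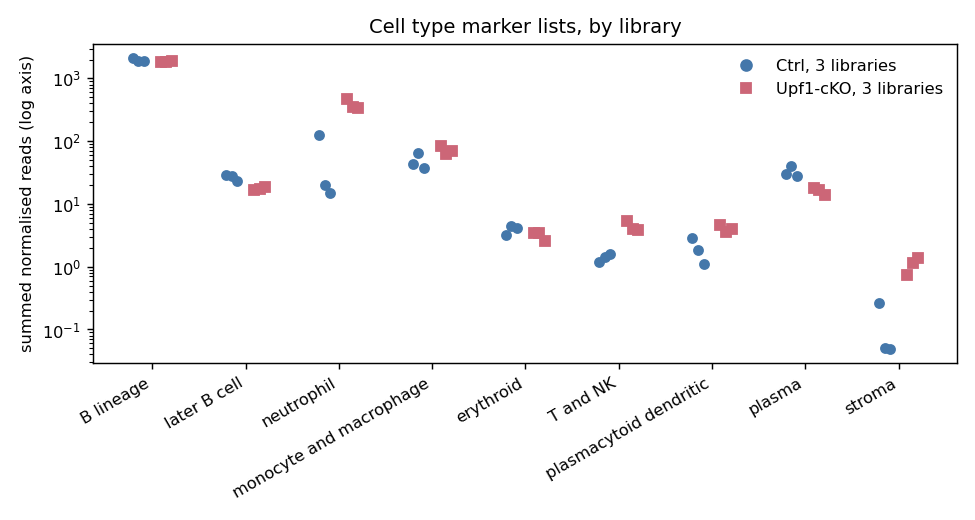
Summed normalised reads (log axis) of cell type marker lists in 3 Ctrl (circles) and 3 Upf1-cKO (squares) libraries. B lineage markers lie between 1820 and 2080 in all libraries, and neutrophil markers lie between 333 and 466 in Upf1-cKO and between 14.8 and 124 in Ctrl.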

How the data were processed

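Reads from rRNA-depleted, single-end libraries were trimmed by the authors with cutadapt 4.0, aligned to mm10 with HISAT2 and counted per Entrez gene with featureCounts 2.0.1 without strand, and limma 3.48.0 is also named in the processing notes. Per gene, the values the authors deposited are a linear signal for each library. Every value was a whole number of reads with 0.5 added, times a constant of its library, so whole reads were recovered for 100% of them (tolerance 0.1 read), at 9732498 to 11006834 reads per library. All 13426 genes exceeded 0.5 in at least 3 libraries, so lower genes had been removed. RefSeq (GRCm38.p6) named 13008 genes, GENCODE release M21 a further 3, and 415 had no name.

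Groups came from the sample labels, with 3 libraries each, which the methods call biological replicates. P-values measure only the spread between these libraries. Between libraries of 1 group the chi-square per degree of freedom was 4.54 to 23.55, beyond sampling noise. limma 3.58.1 in R 4.3.3 was run on log2(value + 1) with a trended, robust eBayes and group as the only term, and genes were called at adjusted p under 0.05. Alternatives were edgeR 4.0.16 and DESeq2 1.42.0 on recovered reads, voom weights, other scalings, a pseudocount of 0.1, a minimum mean log2 value of 1, eBayes without trend and robust estimation, the replicate number as a block, and leaving out each library. Confidence intervals are those of limma, from the spread between libraries. The floor of 3 reads covers counting error only, since reads carried no molecular identifiers.

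The 10 genes and the lists were chosen with earlier results of these data known. Named besides them were Upf1, Cd79a, Mdm4, Cdkn2a, Wrap53, Bax, Pmaip1, Fas, Perp and Sesn2, and in each other pathway list at most 4 genes with the largest absolute fold change among those called. Marker genes are named as examples of their lists, and 1 B lineage marker is not reported here.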

Additional observations from a re-analysis of the deposited data

How the results depend on the processing

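Over 16 alternatives, 7 of the 10 genes (Cdkn1a, Bbc3, Zmat3, Phlda3, Ccng1, Sesn1 and Ephx1) had the same direction and the same call. The median log2 difference over the whole table, 0.01 as reported, became 0.19 with scaling to total reads and -0.10 with median centring. With scaling to total reads, 1936 of all genes, 14 other pathway genes and 1 of the 10 genes were lower, Trp53 was at 0.266 (adjusted p = 0.0125), Mdm2 at -0.091 (adjusted p = 0.482) and Trp53inp1 at -0.12 (adjusted p = 0.277). With median centring Trp53 was at -0.044 (adjusted p = 0.661). Over all settings the adjusted p ran from 0.0125 to 0.779 for Trp53, from 0.00135 to 0.482 for Mdm2 and from 0.000278 to 0.277 for Trp53inp1. Mdm2 was at -0.29 (adjusted p = 0.0684) with eBayes without trend and robust estimation, and leaving out 1 library at a time gave values from -0.37 to -0.22. The cause of these shifts beyond the scaling itself was not tested. Leaving out 1 library at a time gave 6 of the 10 genes higher each time and 2 to 3 lower, 29 to 35 other pathway genes higher and 20 to 23 lower. Of all 13426 genes, 3224 to 3643 were then higher and 2867 to 3350 lower. Same-numbered libraries had correlations of 0.13, -0.06 and -0.08 between their deviations over 9202 genes. With 3 libraries per group, such weak correlations cannot decide whether the replicate numbers pair the libraries. The sample descriptions give consecutive numbers to the Ctrl and Upf1-cKO libraries of each replicate. With the replicate block, 3668 genes were higher and 3321 lower, and the 10 genes kept 6 higher and 3 lower calls. Each block holds 1 library of each group, so it cannot change any fold change, and that of Trp53 was 0.06 by construction. Of the 31 other named genes, 24 kept their call in every alternative that gave a value. Depth limits the controls of Bbc3 (7 to 20 reads per library), Phlda3 (13 to 25) and Zmat3 (21 to 39) and the Upf1-cKO values of Ephx1 (28 to 39). The other values of the 10 genes rest on more reads.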

Other observations

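The nearest listed neighbours of the 10 genes were examined for whether they moved along, and the genes described here were chosen after their values were seen. All of these were called changed, as were 52.7% of all genes. Other neighbours were not called, among them Slc35e3 and Nup107 beside Mdm2 and Fxr2 and Sox15 beside Trp53. Around Cdkn1a, Srsf3 (a splicing factor gene, 47607 bases away) rose from 449 ± 12.6 to 797 ± 33.4 normalised reads (limma adjusted p = 1.17e-08) and Rab44 (13406 bases away) rose from 6.88 ± 1.26 to 15.3 ± 1.51 (adjusted p = 2.7e-05), while Cpne5 (55799 bases away) fell from 8.21 ± 1.71 to 3.59 ± 0.949 (adjusted p = 0.00046). Cpm, a carboxypeptidase gene 1523 bases from Mdm2, fell from 99.4 ± 15.2 to 15.8 ± 1.78, a difference of -2.58 on the log2 scale (SE 0.12, adjusted p = 4.59e-12), much more than Mdm2 itself. Sae1, 1902 bases from Bbc3, rose from 293 ± 20.7 to 449 ± 19.3 (adjusted p = 1.49e-06), and Cep57l1, 706 bases from Sesn1, rose from 19.6 ± 0.806 to 29.7 ± 1.85 (adjusted p = 0.000289). Near Trp53inp1, Ndufaf6 and Ints8 rose, from 9.82 ± 1.52 to 34.9 ± 1.18 and from 78.4 ± 4.71 to 168 ± 10.3, against the direction of Trp53inp1, while Ccne2 (cyclin E2, 16054 bases away) fell from 41.4 ± 3.99 to 27.8 ± 1.67. Tmem63a, 14450 bases from Ephx1, rose from 18.5 ± 2.46 to 28.5 ± 0.782 (adjusted p = 0.000421) where Ephx1 fell. No test of shared direction between neighbours was made.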
